A study of Mus musculus with 3 samples.

Results

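The Fos, Jun and Batf genes were measured in CD4+CD25- T cells that had been purified from spleen and lymph node and activated under 3 cytokine conditions. The members were the 13 probe sets whose only gene symbol was Batf, Batf3, Fos, Fosb, Fosl1, Fosl2, Jun, Junb or Jund, so 9 genes of the 18193 with a symbol of their own, and 13 of 45101 probe sets. All cells came from female mice of 6 to 8 weeks with the genotype Stat6/T-bet double knockout on the BALB/c background, so every condition lacked the transcription factor that IL-4 signals through and the transcription factor of Th1 cells. Every culture received 5 µg/ml of plate-bound anti-CD3 with 1 µg/ml of anti-CD28 for 2 days. The TGFβ culture had TGFβ at 5 ng/ml, the IL-6 plus IL-23 culture had IL-6 and IL-23 at 10 ng/ml each, and the IL-6 plus TGFβ culture had IL-6 at 10 ng/ml and TGFβ at 5 ng/ml. There was 1 Affymetrix mouse array for each condition and no replicate. No ratio below therefore has a replicate check or a p-value. The labels do not say how many mice gave the cells, and no culture without cytokines, with IL-6 alone or with cells that kept Stat6 and T-bet was among the samples.

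AP-1 is a dimer of basic leucine zipper proteins. Jun proteins pair with each other or with Fos proteins, whereas Fos proteins need a Jun partner to bind DNA. Batf and Batf3 also pair with Jun proteins but have no transactivation domain of their own, and in T cells the Batf-Jun pair binds beside IRF4 or IRF8 at composite sites. Batf is required for Th17 differentiation, and Fos and Jun genes are induced by T cell receptor signals through MAP kinases.

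Levels below are quantile-normalized intensities in arbitrary units. Where 3 are listed, the TGFβ array comes first, IL-6 plus IL-23 follows and IL-6 plus TGFβ is last, and every ratio is a log2 value unless a fold is named. Levels of different probe sets cannot be set against each other. The floor, below which values were not read, lay at an intensity of 59.3, and a gene counted as higher or lower differed by 2-fold or more with the brighter array above the floor. The only error that could be estimated was the spread of ratios between probe sets of 1 gene. Its SD was estimated from the median absolute deviation. This estimate was 0.22 for IL-6 plus TGFβ over TGFβ and 0.30 for IL-6 plus IL-23 over TGFβ. For IL-6 plus TGFβ over IL-6 plus IL-23 it was 0.29. The ordinary SD was larger, at 0.25, 0.34 and 0.32 in the same order. The estimate is the probe-set spread used below, and it leaves out differences between cultures and arrays. In these bulk cultures, fewer cells of a type and less RNA per cell cannot be told apart.

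Facts of the arrays that touch all members were few. The deposited intensities had medians of 35.8, 17.8 and 28.1, so the IL-6 plus IL-23 array was the dimmest before normalization, and the transferrin receptor control, a sign of RNA quality, gave 3′ over 5′ ratios between 2.49 and 2.65. Without scaling, the median ratio of genes on both arrays was -0.42 for IL-6 plus TGFβ over TGFβ and -0.85 for IL-6 plus IL-23 over TGFβ. It was 0.42 for IL-6 plus TGFβ over IL-6 plus IL-23, and unscaled ratios below are to be read relative to these medians. Stat6 and Tbx21 read between 191 and 259 and between 118 and 205, and with the deleted parts of both genes unstated in the labels, this checks nothing. All 8 measured T cell identity genes, Cd4 among them, were above the floor on at least 1 array, with a summed level of 23115 to 26031. B cell markers (0 of 3) and dendritic cell markers (0 of 4) were above the floor on no array, myeloid markers gave 1 of 5 (Csf1r, summed level of the list 114 to 130), and CD8 and NK cell markers gave 2 of 4, Cd8a and Cd8b1. The summed level of the CD8 and NK cell list was 306, 322 and 238, and its part in the results below was not tested.

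Of the 9 members, 7 were above the floor on all 3 arrays, Batf3 on the IL-6 plus IL-23 array alone, and Fosb on none. The members that differed most were Batf and Fosl2, which were higher on both arrays with IL-6 than on the TGFβ array, Fos, which was highest with IL-6 plus IL-23, and Jun, which was lowest there. Junb, Jund and Fosl1 differed by less than 2-fold in each of the 3 comparisons.

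**Figure D1:**
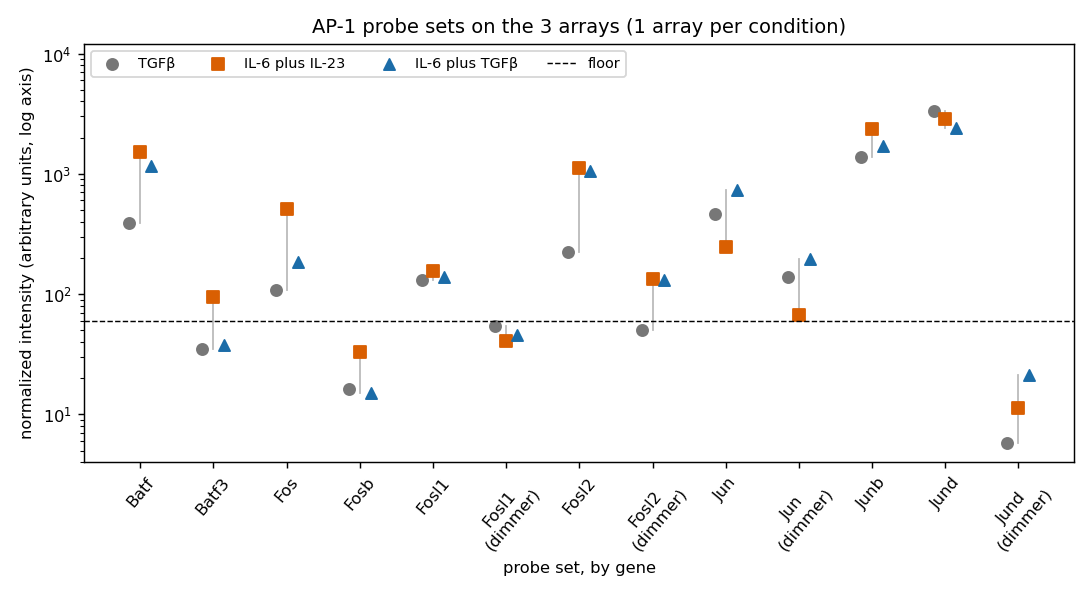
Normalized intensity (log axis) of the 13 probe sets on the TGFβ (circles), IL-6 plus IL-23 (squares) and IL-6 plus TGFβ (triangles) arrays, with a grey line from the lowest to the highest value and the floor of 59.3 dashed; "dimmer" marks the further probe set of a gene. Batf and Fosl2 stand apart on the TGFβ array (386 and 222), Fos is highest on the IL-6 plus IL-23 array (509) and Jun is lowest there (245).

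The 4 members that were counted in any comparison are shown with the 250 bases upstream of their start in RefSeq (GRCm38.p6). Capitals mark matches, on either strand, to the TRE TGACTCA, the TRE-like site TGACATCA, the CRE TGACGTCA, the CRE core TGACG, the STAT site TTCNNNGAA, the TATA box TATAAA and the CArG box, which is the binding site of serum response factor. The CRE holds the CRE core, so these overlap.
Batf, chr12:85686470-85686719, plus strand: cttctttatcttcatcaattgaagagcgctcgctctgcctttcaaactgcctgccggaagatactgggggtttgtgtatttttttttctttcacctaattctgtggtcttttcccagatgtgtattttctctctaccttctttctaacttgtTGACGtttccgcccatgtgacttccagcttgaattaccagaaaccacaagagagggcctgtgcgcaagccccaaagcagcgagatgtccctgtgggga
Fosl2, chr5:32136222-32136471, plus strand: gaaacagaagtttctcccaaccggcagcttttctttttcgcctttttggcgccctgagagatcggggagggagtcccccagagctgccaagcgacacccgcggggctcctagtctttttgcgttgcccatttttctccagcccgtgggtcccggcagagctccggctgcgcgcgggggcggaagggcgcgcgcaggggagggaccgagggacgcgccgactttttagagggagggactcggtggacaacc
Fos, chr12:85473640-85473889, plus strand: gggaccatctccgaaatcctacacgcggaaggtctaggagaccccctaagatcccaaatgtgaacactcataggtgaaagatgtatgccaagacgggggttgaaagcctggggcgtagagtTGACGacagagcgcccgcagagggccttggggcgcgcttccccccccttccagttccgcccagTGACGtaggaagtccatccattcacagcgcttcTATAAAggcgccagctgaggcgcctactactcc
Jun, chr4:95052223-95052472, minus strand: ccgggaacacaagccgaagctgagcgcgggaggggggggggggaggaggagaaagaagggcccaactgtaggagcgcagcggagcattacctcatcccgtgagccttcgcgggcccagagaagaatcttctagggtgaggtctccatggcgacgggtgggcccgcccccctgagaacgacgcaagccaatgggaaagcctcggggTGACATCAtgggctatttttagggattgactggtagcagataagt

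The Jun window held the TRE-like site 45 to 38 bases upstream of the start, a sequence that 2.93% of 32851 windows of the same length held. Fos held the CRE core at 129 to 125 and at 66 to 62 bases upstream and a TATA box at 33 to 28, and Batf held the CRE core at 98 to 94. The CRE core was common, in 17.8% of all windows, and the TATA box was in 12.4%. No listed sequence was found in the Fosl2 window. Windows were matched for 8 of the 9 members, and among the others Fosb and Junb held the CRE core and Batf3 held the STAT site, which 7.02% of all windows held. The TRE was in 4.46%, the CRE in 1.55% and the CArG box in 1.47% of all windows, and none of these was found in the matched windows. Bases further than 250 upstream were not searched, so a gene without a match, Fos and the CArG box included, may hold the site there. The start listed for Jund may lie upstream of its main one, so nothing is read from the Jund window. These matches describe the letters only.

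The Batf genes come first, as partners of Jun that act without a transactivation domain. Batf read 386 with TGFβ, 1524 with IL-6 plus IL-23 and 1168 with IL-6 plus TGFβ. Both arrays with IL-6 were thus well above the TGFβ array, and they lay near each other. The level with IL-6 plus TGFβ was 3.02-fold that with TGFβ (1.60), and the level with IL-6 plus IL-23 was 3.95-fold that with TGFβ (1.98). The arrays with IL-6 differed by -0.38 for IL-6 plus TGFβ over IL-6 plus IL-23, against a probe-set spread of 0.29, and without scaling between arrays this ratio was 0.03. Batf was measured by 1 probe set.

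Batf3, best known for its role in cross-presenting dendritic cells, was below the floor with TGFβ (34.7) and IL-6 plus TGFβ (37.8) and read 94.7 with IL-6 plus IL-23. Its ratio was therefore a bound, at least 1.60-fold higher with IL-6 plus IL-23 than on either other array, which is short of the 2-fold rule. With the floor at the 90th percentile of the background probe sets it was counted as higher with IL-6 plus IL-23. Over TGFβ its bounds or ratios ran from 0 to 1.45 across the settings, with 0.06 without scaling. It was not counted in that comparison under 6 of the 10 alternative settings. The 4 measured dendritic cell markers, Itgax, Flt3, Zbtb46 and Xcr1, were below the floor on every array.

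Among the Fos genes, Fosl2 was counted as higher in both comparisons with TGFβ. Fosl2 encodes Fra-2, a Fos protein without the strong transactivation domain of Fos, which has been reported to limit parts of the Th17 programme. Its brighter probe set read 222, 1125 and 1050, so it was low with TGFβ and nearly equal on the arrays with IL-6. It was 4.73-fold higher with IL-6 plus TGFβ than with TGFβ (2.24) and 5.06-fold higher with IL-6 plus IL-23 than with TGFβ (2.34), while the arrays with IL-6 differed by -0.10 (0.35 without scaling). Its dimmer probe set read 50.5, 133 and 130, with the TGFβ array below the floor. That gave at least 2.19-fold and at least 2.24-fold over TGFβ, in the same order, and -0.03 between the arrays with IL-6.

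Fos itself, the immediate early gene that marks recent receptor signalling, read 108, 509 and 185. The IL-6 plus IL-23 array stood above both others. Fos was 4.71-fold higher with IL-6 plus IL-23 than with TGFβ (2.24) and 2.76-fold lower with IL-6 plus TGFβ than with IL-6 plus IL-23 (-1.46). With IL-6 plus TGFβ it was 1.71-fold the level with TGFβ (0.77), below the 2-fold rule and above the probe-set spread of 0.22. Without scaling, the ratio to IL-6 plus IL-23 was -0.96 and no longer counted. Only 1 probe set measured Fos.

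Fosl1, which encodes Fra-1, stayed close to even. Its brighter probe set read 130, 154 and 139, and its ratios of 0.10, -0.15 and 0.25, for IL-6 plus TGFβ over TGFβ, IL-6 plus TGFβ over IL-6 plus IL-23 and IL-6 plus IL-23 over TGFβ, were each smaller than the probe-set spread. Without scaling, all of these changed sign (-0.35, 0.43 and -0.78), where the medians of genes on both arrays were -0.42, 0.42 and -0.85. The dimmer probe set of Fosl1 was below the floor on every array, and so was the single probe set of Fosb, at 16.3, 33.1 and 15.1.

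Jun, a partner of both Fos and Batf proteins, had another order of levels. Its brighter probe set read 464, 245 and 728, so it was lowest with IL-6 plus IL-23, where Fos was highest. Jun was 2.97-fold higher with IL-6 plus TGFβ than with IL-6 plus IL-23 (1.57), and its dimmer probe set, at 138, 66.4 and 195, gave 2.93-fold (1.55). For IL-6 plus IL-23 over TGFβ, the ratio was -0.92 on the brighter probe set, which missed the 2-fold rule, and -1.05 on the dimmer one, which passed it. Without scaling the brighter one gave -1.89, where the median of genes on both arrays was -0.85. With scaling on the hybridization controls Jun was also counted as lower. With IL-6 plus TGFβ it stood 0.65 above TGFβ (0.50 on the dimmer probe set, 0.18 without scaling).

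Junb and Jund, the other Jun genes, differed less. Junb, which Th17 cells need to keep their programme, read 1381, 2377 and 1704. Its ratio was 0.78 for IL-6 plus IL-23 over TGFβ, 0.30 for IL-6 plus TGFβ over TGFβ and -0.48 for IL-6 plus TGFβ over IL-6 plus IL-23, each under 2-fold. Without scaling its ratios to TGFβ changed sign, to -0.11 and -0.18. The medians of genes on both arrays were then -0.85 and -0.42, in that order. Jund, the most constantly expressed Jun gene in many cells, read 3350, 2865 and 2424, with -0.47 for IL-6 plus TGFβ over TGFβ, -0.24 for IL-6 plus TGFβ over IL-6 plus IL-23 and -0.23 for IL-6 plus IL-23 over TGFβ. Without scaling the last of these was -1.07 and was counted as lower, where the median of genes on both arrays was -0.85. The unscaled ratio to IL-6 plus IL-23 was 0.17, where that median was 0.42. A further Jund probe set was below the floor on every array, and averaging it in turned all of these ratios positive (0.71, 0.33 and 0.37).

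Counted over the members, IL-6 plus TGFβ over TGFβ gave 2 higher (Batf and Fosl2) and 0 lower among the 7 above the floor on either array. Over all 9057 genes so tested, 2.75% were higher and 2.11% lower, or 4.86% in either direction. The median ratio of these 7 was 0.65, and that of all genes 0.02. Ratios as high as that of Fosl2 were found for 0.42% of all genes, as high as that of Batf for 0.92%, and as high as those of Fos and Jun for 4.46% and 6.30%. Of all genes counted, 56.6% were higher, against 45.0% after median scaling and 15.3% without scaling, while Batf and Fosl2 were counted as higher under every scaling tried.

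IL-6 plus TGFβ over IL-6 plus IL-23, which differ in both TGFβ and IL-23, gave 1 member higher (Jun) and 1 lower (Fos) of 8. The background was 3.89% higher and 3.4% lower of 9210 genes, or 7.29% in either direction. A ratio as high as that of Jun was found for 1.37% of genes, and one as low as that of Fos for 1.41%. The other 6 members lay between -0.68 (Batf3, a bound) and -0.10 (Fosl2), and the median over the 8 was -0.31 against -0.04 for all genes. The share of higher genes among those counted was 53.4%, and it was 37.4% after median scaling, 64.7% after scaling on hybridization controls and 89.1% without scaling. Jun was higher under each of these scalings, and Fos was lower except without scaling.

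IL-6 plus IL-23 over TGFβ gave 3 members higher (Batf, Fos and Fosl2) and 0 lower of 8. Of 9131 genes, 3.53% were higher and 3.36% were lower, or 6.89% in either direction. These cultures differed in IL-6, IL-23 and TGFβ at once, so the part of each cannot be told apart. The median over the 8 was 0.73, and that of all genes 0.06. Ratios as high as those of Fosl2, Fos and Batf were found for 0.45%, 0.53% and 0.73% of genes. Batf, Fos and Fosl2 were counted under all scalings, including without scaling, where the median ratio of genes on both arrays was -0.85 and 2.38% of counted genes were higher (51.2% after quantile normalization, 34.2% after scaling on hybridization controls). The 3 comparisons share arrays and are not independent of one another.

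**Figure D2:**
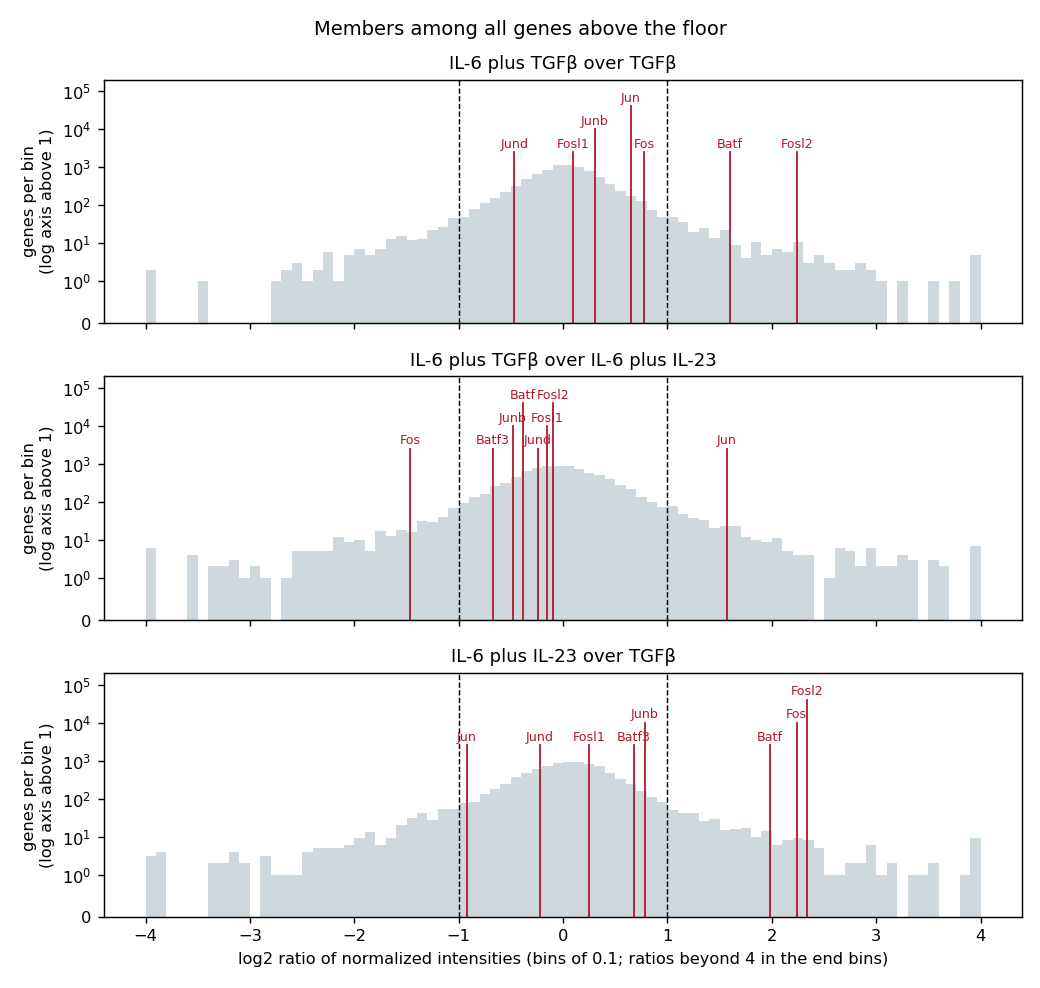
Number of genes (log axis above 1) by log2 ratio in each comparison, over 9057, 9210 and 9131 genes above the floor on either array, with red lines at the members and dashed lines at 2-fold. Fosl2 and Batf lie far to the right in both comparisons with TGFβ, and Fos and Jun lie on opposite sides for IL-6 plus TGFβ over IL-6 plus IL-23 (-1.46 and 1.57).

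**Figure D3:**
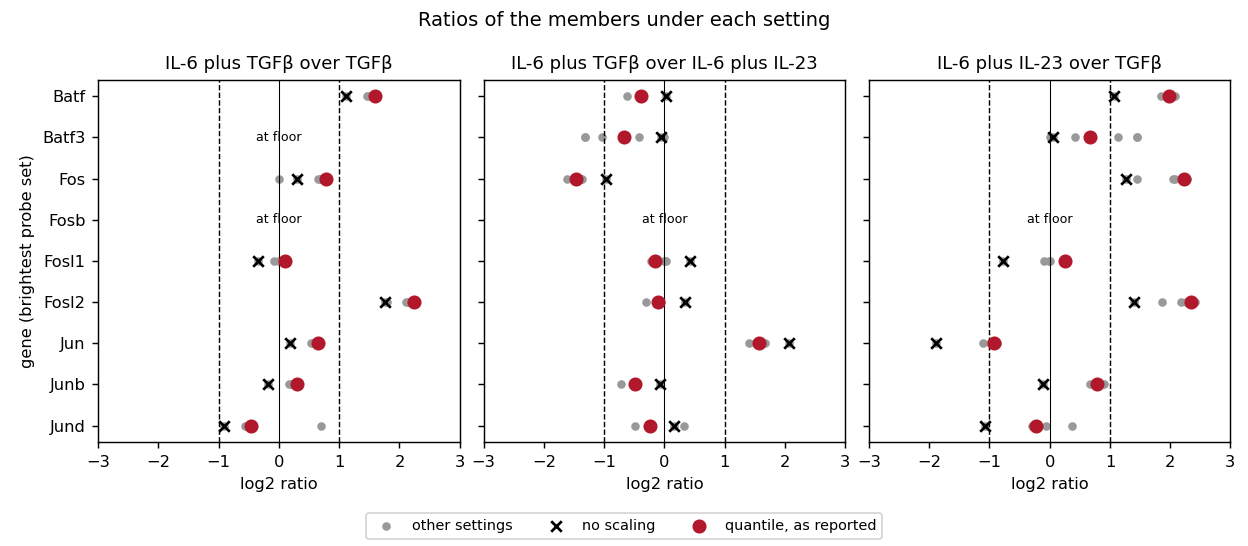
Log2 ratio of each member in the 3 comparisons, as reported after quantile normalization (red), without scaling (crosses) and under the other scalings, floors and summaries (grey), with dashed lines at 2-fold; red points of Batf3 are bounds. Batf and Fosl2 stay beyond 2-fold over TGFβ in all settings, whereas Fosl1 moves across 0 in each panel.

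A scaling factor common to an array cancels when members are compared within it. Fos moved by 3.16 relative to Jun from TGFβ to IL-6 plus IL-23, the difference between 2.24 and -0.92, and by the same 3.16 in the unscaled intensities. From IL-6 plus IL-23 to IL-6 plus TGFβ it moved by -3.03, whereas from TGFβ to IL-6 plus TGFβ the pair moved nearly alike, by 0.77 and 0.65 (difference 0.12). Fosl2 moved by 1.59 and Batf by 0.95 relative to Jun in that last comparison, and by 3.26 and 2.90 from TGFβ to IL-6 plus IL-23. For Fosl2 and Batf the shift relative to Jun was larger between the TGFβ and IL-6 plus IL-23 arrays than in either other comparison. For Fos the shifts of 3.16 and -3.03 differed in size only by the 0.12 of the remaining comparison.

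Genes with the profiles most like those of the 4 counted members were sought among 8247 genes above the floor on all arrays, by the Euclidean distance between log2 profiles centred on their mean. Over only 3 arrays, such likeness describes these arrays and says nothing of shared control. Batf was nearest to Glipr2 (distance 0.02, at 177, 696 and 527), then Bnip3 (0.08) and Ncs1 (0.11). Fos was nearest to Ces5a (0.06), Crem (0.14), which encodes a cAMP-responsive leucine zipper factor and read 567, 2699 and 1098, and Ak4 (0.16). Fosl2 was nearest to Rpl41 (0.08), Satb1 (0.12), a chromatin organizer of T cells that read 1225, 6899 and 5894, and Sema4f (0.26). Jun was nearest to Mtss1 (0.02, at 501, 260 and 788), Serf1 (0.04) and Ifngr2 (0.06), a chain of the interferon-γ receptor that read 178, 89.7 and 264.

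Other genes of the pathway were described from lists of partners, upstream genes and targets. Each count below is to be read beside the share of all genes counted in the same comparison. For IL-6 plus TGFβ over TGFβ, 2.75% were higher and 2.11% lower. The shares were 3.89% and 3.4% for IL-6 plus TGFβ over IL-6 plus IL-23. For IL-6 plus IL-23 over TGFβ they were 3.53% and 3.36%. Of 15 measured other leucine zipper factors that share partners or sites with AP-1, 13 were above the floor for IL-6 plus TGFβ over TGFβ, and Maf was the 1 higher (2.09), with 0 lower and a median of 0.12 (-0.34 without scaling, where the median of all genes was -0.42). For IL-6 plus TGFβ over IL-6 plus IL-23, Maf was again higher (3.65) and Atf3, a stress-induced factor that pairs with Jun, was lower (-2.29), reading 138, 416 and 85.0. Atf3 was the 1 higher of these for IL-6 plus IL-23 over TGFβ (1.59, and 0.62 without scaling), with Maf (-1.56) and Cebpb (-1.48) lower. Without scaling 0 were higher and 6 lower in that comparison, since Atf2, Maff, Bach1 and Bach2 then passed the rule. Batf2, a further Batf gene, was below the floor on every array.

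Partners at composite sites and Th17 factors were counted next. Of 11 measured, 5 were higher and 0 lower with IL-6 plus TGFβ than with TGFβ, namely Maf, Ahr (2.03), Rora (1.83), Hif1a (1.08) and Nfatc2 (1.06), with a median of 0.34 against 0.02 for all genes. Hif1a and Nfatc2 were just past the rule, and after median scaling they stood at 0.98 and 0.93 and 3 were higher. For IL-6 plus TGFβ over IL-6 plus IL-23, 5 were higher and 0 lower, namely Maf, Ahr (3.51), Rora (1.27), Nfatc2 (1.08) and Ets1 (1.04), the last 2 of which missed the rule after median scaling (0.91 and 0.79). Between IL-6 plus IL-23 and TGFβ, Hif1a (1.04) was higher and Maf, Ahr (-1.48), Irf8 (-1.41) and Ets1 (-1.07) were lower. Ets1 missed the rule after median scaling (-0.89), and Hif1a did without scaling (0.30). Irf4, the partner of Batf and Jun in T cells, was near even, at 3447, 3408 and 4374. Irf8, which can take its place, read 8816, 3315 and 4659.

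The list of Th17 genes reported to need Batf held 8, of which 4 had a probe set of their own. All 4 were higher with IL-6 plus TGFβ than with TGFβ, against 2.75% of all genes. Their median was 2.36, and that of all genes 0.02. They were Il21 (at least 39.2-fold), Il17a (2.69), Ahr and Rora, and the last 2 also belong to the composite site list. With IL-6 plus IL-23, 2 of them were higher than with TGFβ (Il21, at least 44.3-fold, and Il17a, 2.72), against 3.53% of all genes. Ahr was lower and Rora was not counted (0.56), and the median was 1.64 against 0.06 for all genes. Batf was higher than with TGFβ in both of these comparisons (1.60 and 1.98). The counts of this list were the same under every scaling tried. Between the arrays with IL-6, Ahr and Rora were higher with IL-6 plus TGFβ, and Il17a (-0.03) and Il21 (-0.18) differed by less than the probe-set spread.

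Targets of AP-1 and NFAT in activated T cells were counted as higher with IL-6 plus IL-23 or not at all, after quantile normalization, in both comparisons with that array. Of 12 measured, 5 were higher and 0 lower there than with TGFβ, with a median of 0.91 against 0.06 for all genes. They were Il3 (at least 17.1-fold), Il2 (3.85), the growth factor of T cells, Il4 (1.77), the chemokine Ccl4 (1.11) and Csf2 (1.05), which encodes GM-CSF. Without scaling 2 of them were higher, Cd69 was the 1 lower (-1.17) and the median was 0.02 against -0.83 for all genes. For IL-6 plus TGFβ over IL-6 plus IL-23, 6 of 11 above the floor were lower and 0 higher (median -1.63, and -1.07 with again 6 lower and 0 higher without scaling), led by Il3 (at least 17.1-fold lower), the chemokine Ccl3 (-3.56), Il2 (-3.11), Ccl4 (-2.31) and Csf2 (-2.00, a bound). Against TGFβ, Ccl3 (-2.68) and Ccl4 (-1.20) were the 2 lower of 10 with IL-6 plus TGFβ, and 0 were higher. Without scaling 5 were lower there, with Csf2 (-1.39), Ifng (-1.20) and Cd69, just past the rule, added.

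MAP kinase genes, which act on Fos and Jun through phosphorylation, differed by less than 2-fold after quantile normalization. Of 10 measured, 0 were higher and 0 lower in each comparison, with medians of 0.36 for IL-6 plus TGFβ over TGFβ, -0.10 for IL-6 plus TGFβ over IL-6 plus IL-23 and 0.37 for IL-6 plus IL-23 over TGFβ. Without scaling these medians were -0.10, 0.37 and -0.52, and Mapk9 and Map3k1 passed the rule in both comparisons with IL-6 plus IL-23, as did Map3k7 over TGFβ. Of 14 serum response and immediate early genes, 13 were above the floor. With IL-6 plus TGFβ, 0 were higher than with TGFβ and 3 were lower, the nuclear receptors Nr4a3 (-2.77) and Nr4a1 (-1.09) and Egr3 (-1.75), and 0 were higher than with IL-6 plus IL-23 and 3 lower, Ier3 (-1.23), Egr1 (-1.02) and Nr4a1 (-1.01). None of these last 3 passed the rule without scaling (-0.77, -0.64 and -0.59). From TGFβ to IL-6 plus IL-23, only Ier3 was higher (2.21), as Fos was (2.24), and only Nr4a3 was lower (-1.92). The median of the 13 was -0.07 there against 0.06 for all genes, so the list as a whole did not move with Fos. It was -0.07 against 0.02 for IL-6 plus TGFβ over TGFβ, and -0.22 against -0.04 for IL-6 plus TGFβ over IL-6 plus IL-23. The counts of this list moved with the scaling. From TGFβ to IL-6 plus IL-23, 5 were lower without scaling, with Elk3, Elk4, Egr3 and Ier2 added, and 2 were higher after median scaling, with Egr1 added (1.11). For IL-6 plus TGFβ over IL-6 plus IL-23, 5 were lower after median scaling, with Egr3 and Nr4a3 added. Srf, the factor that drives Fos through the CArG box, read 261, 304 and 276.

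**Figure D4:**
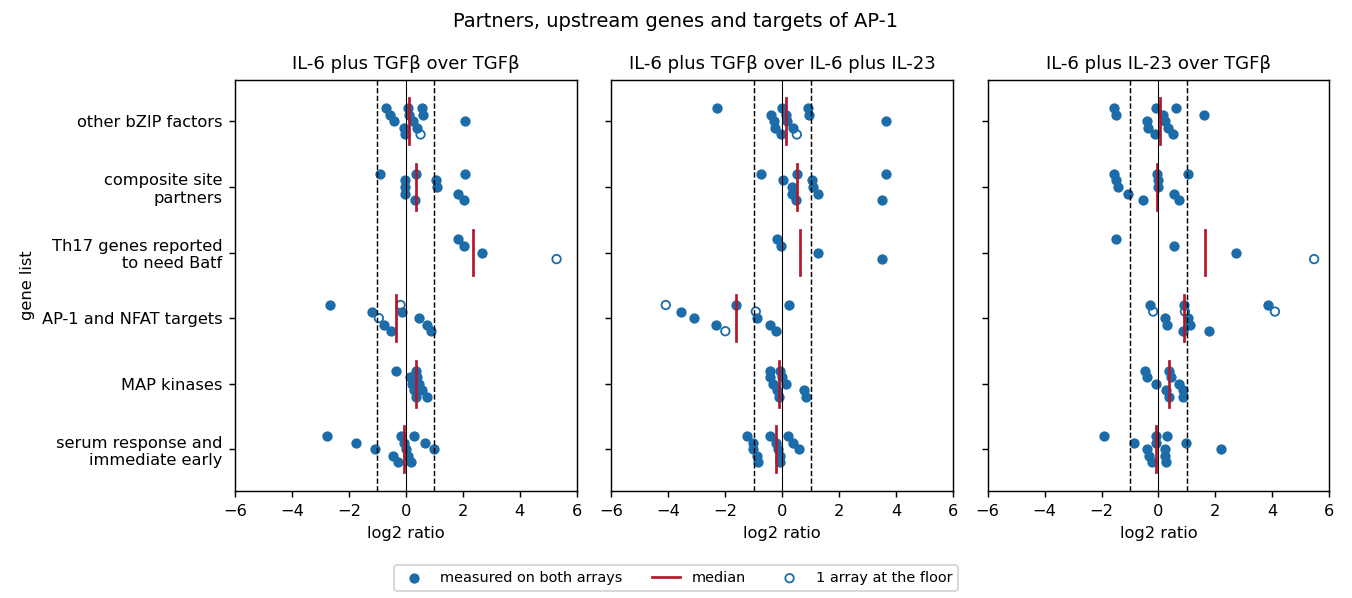
Log2 ratio of each gene of 6 lists in the 3 comparisons, with filled points measured on both arrays, open points where 1 array is at the floor (bounds), a red bar at the median and dashed lines at 2-fold. The AP-1 and NFAT targets lie to the left for IL-6 plus TGFβ over IL-6 plus IL-23 (median -1.63) and to the right for IL-6 plus IL-23 over TGFβ (0.91), and the MAP kinases stay within 2-fold after quantile normalization.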

How the data were processed

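RNA of 3 cultures was hybridized as biotinylated cRNA to Affymetrix mouse arrays, 1 per condition, per the labels' protocols. The authors deposited linear intensities, 1 per probe set, with the summary software, background correction and scaling not stated there. From these, 64 control probe sets were left out and log2 intensities were quantile-normalized (Python 3.11.15, numpy 2.4.6, scipy 1.17.1), which removes any real difference in total mRNA. Genes came from the platform annotation (34945 probe sets with 1 symbol, 932 with several and 9160 unnamed), and the brightest probe set stood for a gene. Values under the 95th percentile of 77 probe sets from 47 tissue-restricted genes were raised to that floor. The code was tested on simulated arrays. The single array per condition limits the precision, and no test was run. Alternatives changed the scaling, floor, size rule, probe set summary or an offset of 16. Named were all members, up to 5 counted genes per list and comparison with the largest ratios, and the 3 nearest profiles; Irf4, Srf, Batf2 and genes that changed their count with scaling were added after their values were seen. Members and lists were chosen with earlier results of these data known. List genes without a probe set of their own were not analysed here.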

Additional observations from a re-analysis of the deposited data

How the results depend on the processing

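With 1 array per condition no replicate could be left out, and no paired analysis was possible because there are no replicates. Batf and Fosl2 were higher over TGFβ in both comparisons under all 10 alternatives, and Fos was higher with IL-6 plus IL-23 than with TGFβ under all 10. Several of these could not have changed the count. Batf and Fosl2 read above every floor tried, Batf and Fos had 1 probe set each to summarize, and a 1.5-fold rule cannot undo a count. The scaling could change it, and without scaling the ratios of Batf were 1.11 (IL-6 plus TGFβ over TGFβ) and 1.07 (IL-6 plus IL-23 over TGFβ). Jun was higher with IL-6 plus TGFβ than with IL-6 plus IL-23 under 9 of 10 and Fos lower under 8 of 10. No counted ratio reversed. For IL-6 plus TGFβ over TGFβ, 4 members were higher by a 1.5-fold rule. For IL-6 plus TGFβ over IL-6 plus IL-23, 0 were higher by a 3-fold rule, and the members lower were 0 without scaling and by the 3-fold rule, 2 with the lower floor (90th percentile), the 1.5-fold rule or the offset, and 3 without a floor. For IL-6 plus IL-23 over TGFβ, 5 were higher without a floor or by the 1.5-fold rule, and the members lower were 2 without scaling, 1 with hybridization control scaling and 1 by the 1.5-fold rule. Without a floor, values below it enter as if measured. Over all genes, the 3 comparisons in the order of the report counted 440, 671 and 629 genes. Without scaling these were 799, 1167 and 3281, with the floor at the 99th percentile 236, 392 and 354, without a floor 4136, 4849 and 4736, by the 1.5-fold rule 1318, 1921 and 1746, and by the 3-fold rule 143, 232 and 214. Without scaling the median ratio of genes on both arrays moved to -0.42, 0.42 and -0.85, and a member's unscaled ratio is to be read relative to it. Averaging both Jund probe sets, 1 of them below the floor, moved its ratio to 0.71, 0.33 and 0.37.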
